A study of Mus musculus with 9 samples.

Results

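MHC class I molecules and the machinery that loads them with peptide were followed along the small intestine of mice through 10 genes. These were the heavy chain genes H2-K1, H2-Q10, H2-Q5 and H2-T18, the light chain gene B2m, the peptide transporter genes Tap1 and Tap2, the tapasin gene Tapbp and the immunoproteasome genes Psmb8 and Psmb9. In the deposited table, 18193 genes had a probe set annotated to a single symbol, and these 10 were measured by 20 of the 45037 probe sets analysed. A further 11 probe sets carried several class I H2 symbols, 3 of them naming one of the 10 genes, and are given apart as shared. The genes were picked on signals of these arrays, with their differences between segments and diets already known, so their levels and differences are a description with no test. The brightest single-symbol probe set over the 9 arrays stands for a gene. Of the 20 probe sets, 16 had a mean level at or above the median probe set, and the brightest of each of the 10 genes was among them.

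The mice were C57Bl/6J males, a common inbred strain, which were 9 weeks old when a high-fat diet began and were sampled 2 weeks later by scraping the intestinal mucosa. Each intestine was cut into a proximal part (SI1), a middle part (SI2) and a distal part (SI3) of equal length. The diets are called HF-PO where the fat was palm oil, HF-OO where it was olive oil and HF-SO where it was safflower oil, in rising order of the P/S ratio given in the labels. For each part, the RNA of the 6 mice of a diet was combined and hybridised to 1 Affymetrix array, which gave 9 arrays, 3 per segment and 3 per diet. All of these mice ate a high-fat diet, and the study's low-fat diet was not analysed here. A diet's 3 parts were taken from its same 6 mice, and the 3 arrays of a segment differ in diet, so the spread over pools given as SD also holds any effect of diet. A pool of mice hides the spread between animals. Signals of a segment are listed in the order HF-PO, HF-OO, HF-SO.

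MHC class I molecules are heavy chains paired with beta-2-microglobulin that show peptides from inside the cell to CD8+ T cells. Proteasomes cut proteins into peptides, and in cells exposed to interferon the subunits encoded by Psmb8 and Psmb9 replace their constitutive counterparts. The transporter TAP carries the peptides into the endoplasmic reticulum, where tapasin, calreticulin and ERp57 hold empty class I molecules until a peptide binds. Besides the classical H2-K and H2-D molecules, the mouse has nonclassical chains of the Q and T regions. In the gut, epithelial cells carry class I molecules and lie beside many CD8+ intraepithelial lymphocytes.

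Signals were MAS5 intensities scaled by the authors to a 2% trimmed mean of 500 on each array. The median probe set of an array lay between 94.4 and 105.9, and the highest signal between 44534 and 56944. Summed over 5 genes, epithelial markers gave 110411 to 131435 in SI1, 120833 to 125717 in SI2 and 136866 to 142200 in SI3. Exocrine pancreas markers, summed over 7 genes, gave 30679 to 39717 in SI1, 217 to 368 in SI2 and 273 to 383 in SI3. The SI1 arrays therefore carried pancreatic transcripts beside every difference from SI1 given here, and their part in it was not tested. In bulk tissue, fewer cells of a type and less RNA per cell cannot be told apart.

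Of the 10 genes, 8 lie on mouse chromosome 17 and B2m on chromosome 2, while the position of H2-T18 was not used here. A promoter was given for 7 of the 10 by RefSeq on GRCm38.p6. The 250 bases before the start of H2-K1, H2-Q10 and B2m are printed because their brightest probe sets showed flat and steep gradients side by side. Other probe sets of H2-K1 and B2m were lower in SI3 than in SI1. The whole stretch between Psmb9 and Tap1 is printed because both genes start from it. Capitals mark the motifs searched, on both strands and 5′ to 3′ along the gene.
H2-K1, chr17:34000334-34000583, minus strand: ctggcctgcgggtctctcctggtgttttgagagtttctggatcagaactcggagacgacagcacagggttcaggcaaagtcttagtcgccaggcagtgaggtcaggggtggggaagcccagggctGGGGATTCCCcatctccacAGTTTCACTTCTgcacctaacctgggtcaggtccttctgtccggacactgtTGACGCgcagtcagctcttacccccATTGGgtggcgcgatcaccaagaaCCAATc
H2-Q10, chr17:35469839-35470088, plus strand: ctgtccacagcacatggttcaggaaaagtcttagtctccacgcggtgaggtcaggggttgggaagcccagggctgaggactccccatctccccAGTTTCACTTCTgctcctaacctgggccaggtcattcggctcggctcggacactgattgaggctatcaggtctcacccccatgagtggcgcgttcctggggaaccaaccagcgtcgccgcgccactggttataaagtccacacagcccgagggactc
B2m, chr2:122147437-122147686, plus strand: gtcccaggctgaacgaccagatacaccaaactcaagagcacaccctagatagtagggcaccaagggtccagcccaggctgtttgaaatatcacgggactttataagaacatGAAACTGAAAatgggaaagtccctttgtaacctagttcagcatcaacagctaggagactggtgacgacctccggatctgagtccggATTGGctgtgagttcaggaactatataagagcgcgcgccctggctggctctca
Psmb9-Tap1 interval, chr17:34187331-34187555, plus strand: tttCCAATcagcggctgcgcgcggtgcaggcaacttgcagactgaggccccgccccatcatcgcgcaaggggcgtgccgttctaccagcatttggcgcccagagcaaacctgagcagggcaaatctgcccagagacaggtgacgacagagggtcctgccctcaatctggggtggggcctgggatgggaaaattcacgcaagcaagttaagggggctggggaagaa

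Along H2-K1 the capitals mark, in order, the class I enhancer A letters GGGGATTCCC, the class I interferon response letters AGTTTCACTTCT, an X2-like motif, a CCAAT box on the other strand and a CCAAT box on the same strand. Enhancer A and the class I interferon response letters were added to the search after the sequence had been seen. The CCAAT box, the X2-like letters with C or T at the end, the core of the interferon-stimulated response element and an NF-kB consensus were searched from the outset. Of 32851 promoters of the same length, 28 (0.0852%) held GGGGATTCCC and 9 (0.0274%) held AGTTTCACTTCT. The X2-like letters TGACGC stood in 6.12% and the same letters ending in T in 6.47%. The CCAAT box stood in 33.8%, the interferon-stimulated response element core in 2.98% and that form of the NF-kB consensus in 0.32%. H2-Q10 held AGTTTCACTTCT and none of the other motifs searched. The windows are the first 250 bases of the promoter sequences given. Between the whole sequences of H2-Q10 and H2-K1, 207 of 253 aligned positions (81.8%) were identical, and the windows alone were not aligned. The annotation of H2-K1 gives several starts and its span runs to position 34000619, so its window lies inside that span. B2m held GAAACTGAAA, an interferon-stimulated response element core on the other strand, and 1 CCAAT box. The 225 bases between Psmb9 and Tap1, which are transcribed away from each other from starts 226 bases apart, held 1 CCAAT box. The Psmb8 window held none of the motifs and the Tapbp window 2 CCAAT boxes. A match is a description of letters only.

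Across the 10 genes, the level in SI3 lay wholly below that in SI1 in 7, and in 0 wholly above it. The 3 with overlapping pools were H2-K1, B2m and H2-T18, by their brightest probe sets. In the other probe sets of H2-K1 and B2m, SI3 lay wholly below SI1. Of 10974 genes tested, 25.2% had SI3 wholly below SI1, and the 10 genes were not chosen independently of this contrast. The median difference over the 10 was -0.98 on the scale of log2(signal + 16), SI3 minus SI1, against 0.07 over all genes tested. SI2 lay wholly below SI1 in 6 of the 10, against 18.3% of all genes, with a median of -0.62 against 0.02. SI3 lay wholly below SI2 in 3, against 20.0% of all genes, with a median of -0.15 against 0.04. By their brightest probe sets, Tap1, Tap2, Psmb8 and Psmb9 were 1.95-fold to 2.10-fold lower in SI3 than in SI1 and Tapbp 1.19-fold lower. For B2m and H2-K1 the mean differences were 0.03 and 0.00 on the log2 scale, with signs that differed between pools, and H2-Q10 was 11.85-fold lower.

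**Figure D1:**
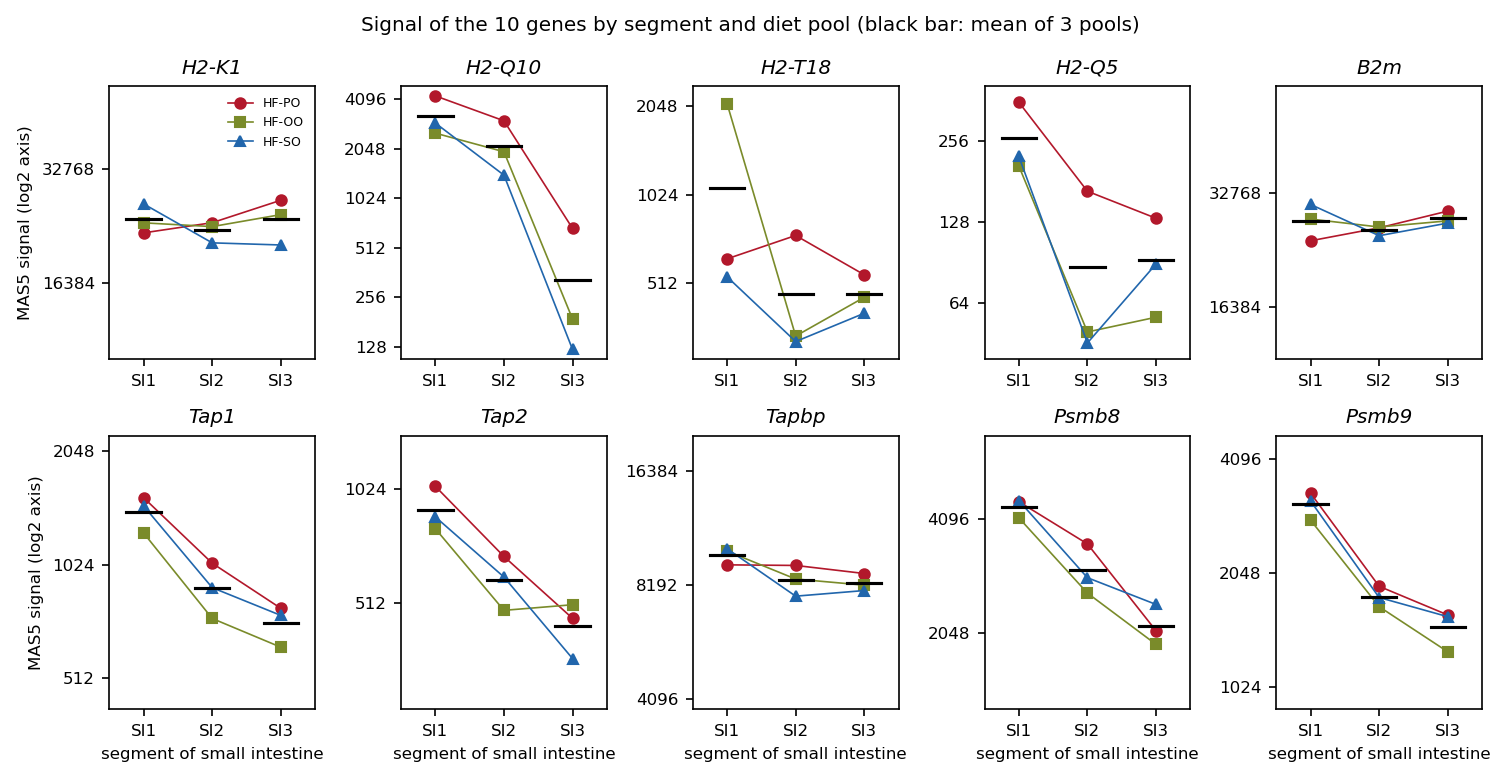
MAS5 signal on a log2 axis of the brightest probe set of each of the 10 genes in SI1, SI2 and SI3. Each coloured line joins the 3 arrays of a diet pool and the black bar is the mean of 3 pools; every panel has its own range. The 3 pools run downward together in Tap1, Psmb8 and Psmb9, stay near level in H2-K1 and B2m, and part in H2-T18, where the HF-OO array of SI1 stands at 2089.5.

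H2-Q10, at chr17:35470089-35474563, encodes a soluble class I chain that is known as a product of the liver. Its signal was 4288, 2544 and 2929.6 in SI1, 3025, 1961 and 1413 in SI2 and 670.3, 188.5 and 123.1 in SI3. All SI3 values lay below all others, while SI1 and SI2 overlapped. The difference of SI3 from SI1 was -3.57 ± 0.88 on the log2 scale (SD, n = 3 pools), or 11.85-fold lower in SI3, and it was -2.65 in the HF-PO pool, -3.65 in HF-OO and -4.40 in HF-SO. Between SI3 and SI2, where pancreas markers were low in both, it was -2.93 ± 0.68, and between SI2 and SI1 it was -0.64 ± 0.36. The 6 hepatocyte markers summed to 212 to 312 in SI1, 165 to 256 in SI2 and 156 to 179 in SI3. All but Serpinc1 lay under the level filter, with albumin at 7.5 to 71.6 and fibrinogen beta (Fgb) at 1.70 to 9.30 over the 9 arrays. Serpinc1, the antithrombin gene, read 142.5, 110.1 and 177.0 in SI1, 158.5, 166.4 and 88.6 in SI2 and 78.6, 90.9 and 82.9 in SI3. Its SI3 minus SI1 of -0.65 had the sign of H2-Q10 and did not pass limma (adjusted p = 0.0668). The part of hepatocyte transcripts in the H2-Q10 signal was not tested.

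H2-K1, at chr17:33996012-34000619, encodes a classical class I chain, and its 4 probe sets did not give the same picture. The brightest read 22264, 23664 and 26549.8 in SI1, 23689, 23130.2 and 20950.4 in SI2 and 27152, 24879.6 and 20681 in SI3. Its pools overlapped at every step, and SI3 minus SI1 was 0.29 in HF-PO, 0.07 in HF-OO and -0.36 in HF-SO. The second brightest had a difference of -0.21 ± 0.19 (SD, n = 3 pools), and its SI3 values lay just below those of SI1 and above those of SI2. By contrast, the third read 18001, 17921 and 18745 in SI1, 16951, 13779.6 and 14529 in SI2 and 10934, 5486 and 7313 in SI3. Every SI3 value of that probe set was below every SI2 value, and every SI2 value below every SI1 value, with SI3 minus SI1 at -1.26 ± 0.50. The dimmest gave -0.82 ± 0.10, at 755, 611 and 609 in SI3 against 1292, 1188 and 1044 in SI1. With the 4 probe sets averaged, the difference between SI3 and SI1 was -0.57, so the choice of probe set decides whether H2-K1 appears level or lower. All 4 have IDs ending in x_at, Affymetrix's mark for probes that can match other transcripts, and class I heavy chains resemble each other closely, so RNA of a related gene may contribute to any of these signals.

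**Figure D2:**
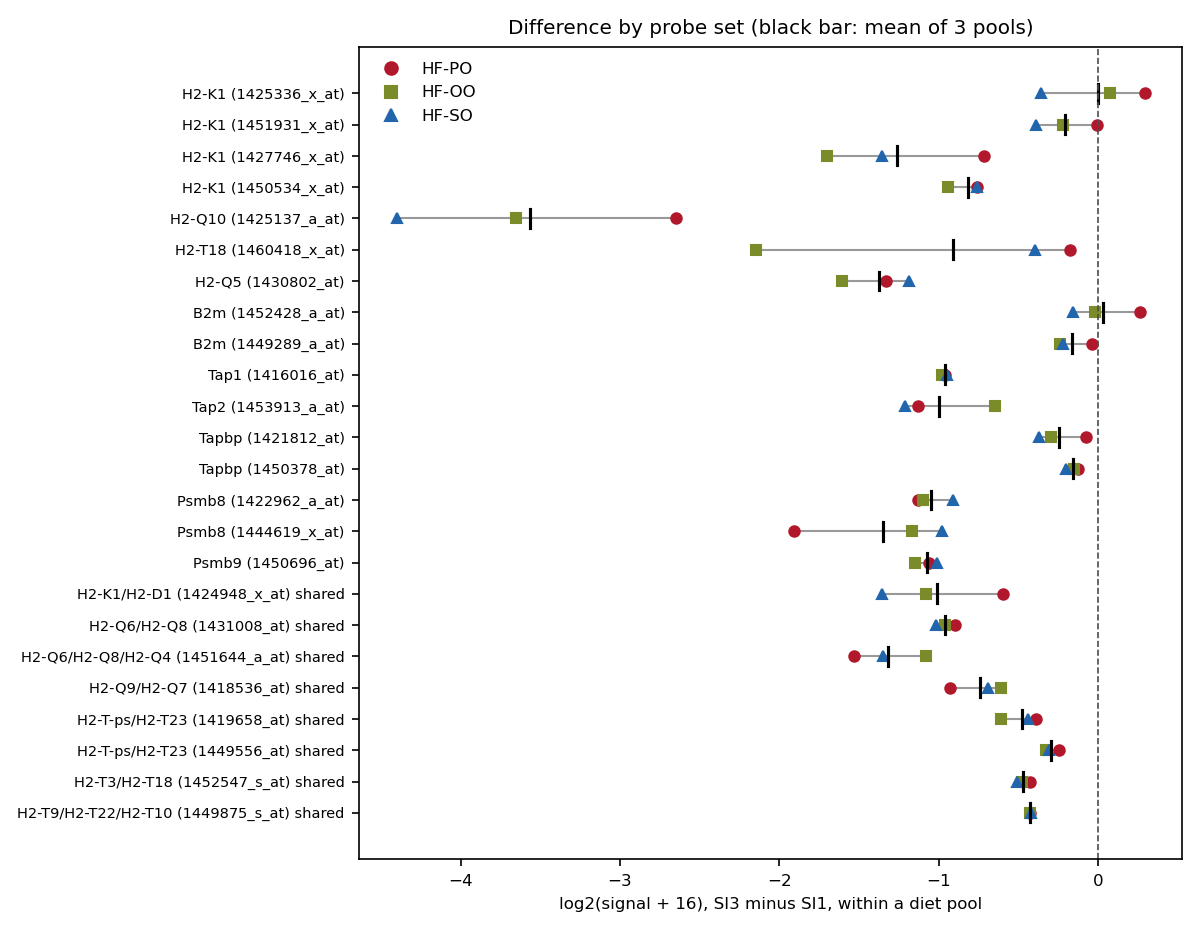
Log2 difference SI3 minus SI1 within each diet pool for the 16 probe sets of the 10 genes above the level filter and, below them, the 8 shared class I probe sets above it. Points are diet pools and the black bar is their mean; the 4 probe sets of H2-K1 run between 0.00 and -1.26, and H2-Q10 stands farthest left at -3.57.

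H2-T18 belongs to the T region, whose TL antigens are displayed by gut epithelium and bind the CD8 alpha homodimer of intraepithelial lymphocytes. The ID of its only single-symbol probe set also ends in x_at, so RNA of a related gene may contribute to the signal. That probe set read 620.0, 2089.5 and 538.5 in SI1, 744, 339 and 324 in SI2 and 547, 459 and 405 in SI3. A single array, HF-OO in SI1, was 3.31 times the level of HF-PO in SI1, and the remaining values of all segments lay between 324 and 744. The difference of SI3 from SI1 was -0.91 ± 1.08 on the log2 scale (SD, n = 3 pools), with the pools overlapping, and it was -0.30 without that array. A probe set shared by H2-T3 and H2-T18 did not show the high HF-OO value, at 584, 596 and 558 in SI1, 549, 534 and 549.5 in SI2 and 428, 422 and 388 in SI3. Its difference was -0.47 ± 0.04, with all SI3 values below all SI1 and SI2 values.

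H2-Q5, at chr17:35394099-35395630, is annotated by RefSeq as a transcribed pseudogene. It read 355, 206 and 224 in SI1, 166, 50.1 and 45.6 in SI2 and 132, 56.8 and 89.4 in SI3, and it was below the array median on 4 of 9 arrays. SI1 lay wholly above SI2 and SI3, which overlapped. SI3 minus SI1 was -1.37 ± 0.22 and SI2 minus SI1 was -1.58 ± 0.49 (SD, n = 3 pools). With a pseudocount of 64 the first of these was -1.05. Its other probe set was near 0, at 1.70 to 7.90 on all arrays.

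Shared heavy chain probe sets mostly ran lower in SI3 than in SI1. The one for H2-K1 and H2-D1 read 10642, 7304 and 7391 in SI3 against 16164, 15429 and 18998 in SI1, a difference of -1.01 ± 0.38 (SD, n = 3 pools). Those of the Q region gave -0.96 ± 0.06 for H2-Q6 and H2-Q8, -1.32 ± 0.22 for H2-Q6, H2-Q8 and H2-Q4, and -0.74 ± 0.16 for H2-Q9 and H2-Q7. Q-region differences between SI2 and SI1 were -0.81, -0.88 and -0.60 for the same 3 probe sets, so most of each was already seen in the middle part. Those of the T region were nearer to 0, at -0.48 and -0.30 for 2 probe sets of H2-T-ps and H2-T23 and -0.43 for H2-T9, H2-T22 and H2-T10. The remaining 3 shared probe sets were dim and did not reach the level filter. The one naming H2-Q5 and H2-K1 was higher in SI3, at 57.9, 144 and 90.2 against 22.8, 45.9 and 52.3 in SI1. The one naming Gm38417, H2-Q2 and H2-D1 gave -1.09 ± 0.25, with SI3 wholly below SI1. A second one of H2-T9, H2-T22 and H2-T10 gave 0.12 ± 0.19, with overlapping pools.

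B2m, at chr2:122147687-122153082, encodes beta-2-microglobulin, the light chain that all class I molecules share. Its brightest probe set read 24532, 28000.1 and 30603 in SI1, 26544, 26679 and 25304 in SI2 and 29390.1, 27697 and 27320.4 in SI3. SI1 overlapped both other segments, and SI3 minus SI1 was 0.03 ± 0.22 (SD, n = 3 pools), with 0.26 in HF-PO, -0.02 in HF-OO and -0.16 in HF-SO. The 3 SI3 values were above the 3 SI2 values by 0.10 ± 0.05, a sign that turned to -0.03 under quantile normalization. The second probe set gave -0.17 ± 0.11 for SI3 minus SI1, and its SI2 and SI3 values lay wholly below those of SI1. Whether B2m appears level or slightly lower thus depends on the probe set. The probe sets reached 57.2% and 59.9% of the highest signal of an array, and the brightest of H2-K1 reached 49.7%. The part of a ceiling of the scanner in the small differences of these probe sets was not tested.

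Tap1 and Tap2 encode the partner chains of the peptide transporter. Tap1, at chr17:34187556-34197225, read 1538, 1241 and 1463 in SI1, 1033, 738 and 889.8 in SI2 and 785, 619 and 752 in SI3. SI1 lay wholly above both other segments, which overlapped. The difference of SI3 from SI1 was -0.96 ± 0.02 (SD, n = 3 pools), and it was -0.96, -0.98 and -0.95 in the 3 pools. Of this, -0.67 ± 0.09 lay between SI2 and SI1. The other 3 Tap1 probe sets did not reach the level filter and were below the array median on 8 or 9 of the 9 arrays. Their SI3 minus SI1 was -1.57, -0.02 and 0.36, and with all Tap1 probe sets averaged the difference was -0.55.

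Tap2, at chr17:34204479-34216321, read 1041, 804 and 864 in SI1, 679, 489 and 599 in SI2 and 466, 506 and 365 in SI3. SI1 was again wholly above SI2 and SI3, which overlapped, with SI3 minus SI1 at -1.0 ± 0.30 and SI2 minus SI1 at -0.61 ± 0.09 (SD, n = 3 pools). Tapbp, at chr17:33919478-33929290, encodes tapasin, which bridges the transporter and the empty class I molecule. It read 9279, 10088 and 10234 in SI1, 9245, 8511 and 7668 in SI2 and 8803, 8201 and 7935 in SI3. SI1 lay narrowly above SI2 and SI3, and SI3 minus SI1 was -0.25 ± 0.15. Its second probe set gave -0.16 ± 0.04, with SI3 again below SI1 in all 3 pools.

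Psmb8 and Psmb9 encode catalytic subunits of the immunoproteasome. Psmb9, at chr17:34182030-34187330, read 3333, 2828 and 3178 in SI1, 1890.4, 1669.8 and 1766 in SI2 and 1588, 1269 and 1572 in SI3. The 3 segments did not overlap, in the order SI1, SI2, SI3. SI3 minus SI1 was -1.07 ± 0.07 and SI2 minus SI1 was -0.80 ± 0.04 (SD, n = 3 pools). Psmb8, at chr17:34198195-34201454, read 4542, 4117 and 4573 in SI1, 3513, 2604 and 2859 in SI2 and 2071, 1906 and 2430.0 in SI3. Its segments did not overlap either, and the differences from SI1 were -1.05 ± 0.12 in SI3 and -0.57 ± 0.17 in SI2. A dimmer probe set of Psmb8 gave -1.35 ± 0.49 for SI3 minus SI1, at 58.9 to 120 in SI3 against 250 to 265 in SI1.

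How alike the 10 profiles were was described by Pearson's r between a gene and the mean of the other 9, over the 9 arrays, on centred log2 values. It was 0.94 for Tap1, 0.92 for Psmb9, 0.91 for Tap2 and for Psmb8, and 0.87 for Tapbp. The heavy chains were lower, at 0.79 for H2-Q5, 0.72 for H2-Q10, 0.55 for H2-T18 and 0.20 for H2-K1, and B2m was at -0.02. These arrays share 3 segments and 3 pools, and no p was computed. Values were centred and not scaled, so H2-Q10, with the widest range, weighed most in any mean that held it. Its centred values ran from 1.83 to -3.12, against 0.67 to -0.62 for Tap1. Outside the 10 genes, 3729 tested genes with an SD of at least 0.3 over the arrays were ranked by r with the mean of the 10. The highest were Acad12 (0.984), Srr (0.974), Pdgfrb (0.971), Ifi27 (0.969), Ddx60 (0.968), Gzma (0.968), Ifit3 (0.967) and Oit1 (0.966). The lowest were Ripk3 (-0.981), Npl (-0.980), Ubac2 (-0.978) and Rdm1 (-0.970). Ifit3, an interferon-induced gene, averaged 1075 ± 201 in SI1, 477 ± 80.1 in SI2 and 289 ± 68.1 in SI3 (SD, n = 3 pools).

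Between diets there is 1 array per segment, so no difference has a replicate check, and ratios are of signal + 16. In SI2, HF-PO had the highest signal of the 3 diets in 9 of the 10 genes, all but B2m, against 32.4% of all genes tested. The counts were 8 of 10 in SI3, against 32.5%, and 5 of 10 in SI1, against 34.5%. The median over the 10 of HF-PO minus the mean of the other diets was 0.11 in SI1, 0.33 in SI2 and 0.18 in SI3 on the log2 scale, against 0.00, -0.01 and -0.02 over all genes. A gene was called set apart where a diet differed at least 1.5-fold from both others in the same direction. HF-PO was set apart as highest in 3 of the 10 in SI2 (H2-Q10, H2-T18 and H2-Q5), against 0.328% of all genes. In SI2 the probe set shared by H2-T3 and H2-T18 did not show it, at 549, 534 and 549.5. A dim one shared by H2-Q5 and H2-K1, under the level filter, had HF-PO lowest there, at 32.1, 116.4 and 86.1. In SI3 HF-PO was set apart as highest in 1, H2-Q10, against 1.06%, and in SI1 in 1, H2-Q5, against 0.574%. Counting any diet and either direction, 2, 3 and 1 of the 10 were set apart in SI1, SI2 and SI3, against 4.35%, 4.39% and 5.39% of all genes, and the one outside HF-PO was H2-T18 with HF-OO in SI1.

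H2-Q10 with HF-PO was 3.36-fold the HF-OO level and 4.93-fold the HF-SO level in SI3. In SI2 the ratios were 1.54 and 2.13, and in SI1 1.68 and 1.46, so the palm oil pool was the highest in every segment. For Tap1 the ratios of HF-PO to HF-OO were 1.24, 1.39 and 1.26 in SI1, SI2 and SI3, and those to HF-SO were 1.05, 1.16 and 1.04. Psmb9 gave 1.18, 1.13 and 1.25 over HF-OO and 1.05, 1.07 and 1.01 over HF-SO. Neither Tap1 nor Psmb9 reached 1.5-fold in a segment, and these ratios come from the same mice in all 3 segments. The sum of 10 markers of T and intraepithelial lymphocytes was also highest with HF-PO in each segment. They summed to 20134 with HF-PO, 15776 with HF-OO and 16582 with HF-SO in SI1, to 12280, 9524 and 9465 in SI2 and to 7562, 5232 and 6358 in SI3. Gene by gene, HF-PO was the highest diet for 10 of the 10 markers in SI1, 8 in SI2 and 5 in SI3. Over all genes tested the shares were 34.5%, 32.4% and 32.5%. Markers of a segment were read from the same 3 arrays, so they do not count as independent. In SI3 the exceptions included Cd3e, at 51.8 with HF-PO, 205.4 with HF-OO and 50.7 with HF-SO, and Cd8a, at 229.1, 202.8 and 239.8. The sum in SI3 lay mostly in Gzma, Ccl5 and Gzmb, for which HF-PO was the highest. Hepatocyte markers were also highest with HF-PO in SI1 (312, 212 and 260) and SI2 (256, 214 and 165), but not in SI3 (178, 179 and 156). Exocrine pancreas markers were highest with HF-PO in SI1 (39717, 30679 and 33275) and SI2, but not in SI3. The epithelial sum was lowest with HF-PO in SI1 and highest in SI3. Other cell type sums were not highest with HF-PO in any segment. The part of any of these cell types in the diet ratios was not tested.

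**Figure D3:**
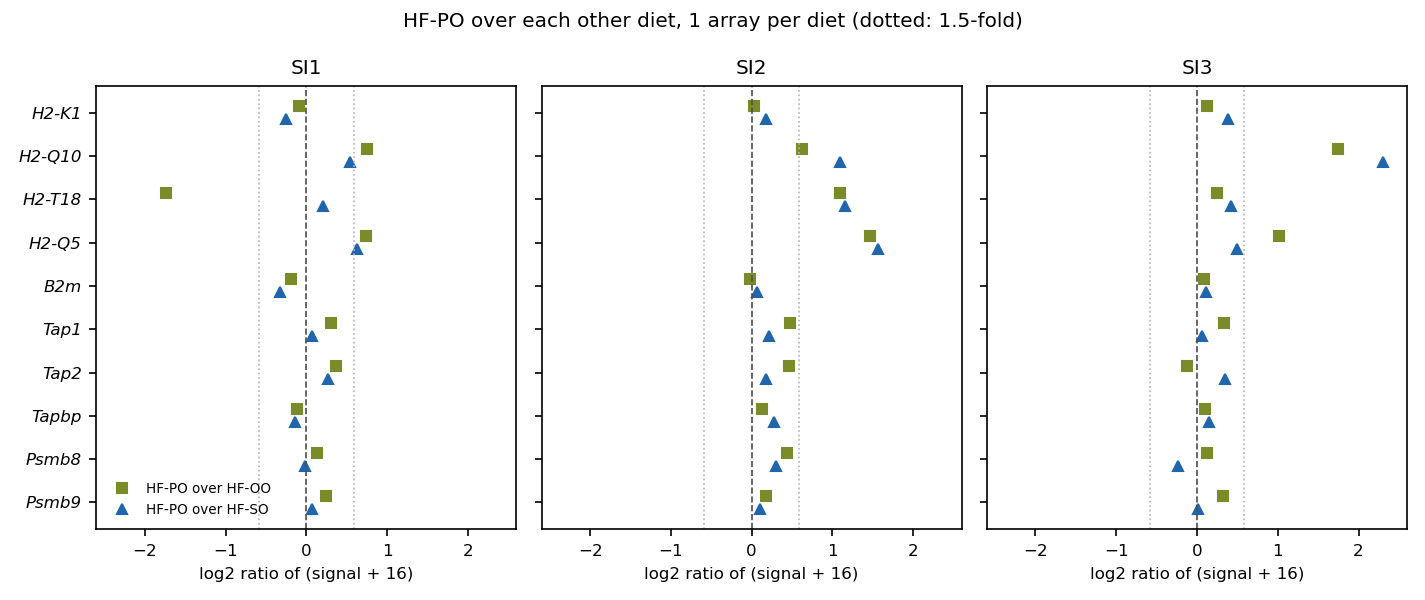
Log2 ratio of HF-PO to HF-OO (squares) and to HF-SO (triangles) for each of the 10 genes in SI1, SI2 and SI3, 1 array per diet; dotted lines mark 1.5-fold. In SI2 nearly all points lie right of 0, and the farthest right in SI3 is H2-Q10, with ratios of 3.36 and 4.93.

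The other genes of the pathway were tested with limma in the fit over all probe sets. Of 44 genes tested, 6 were higher and 8 lower in SI3 than in SI1, where 25.2% of all genes tested rose and 20.4% fell. Their median was -0.10, against 0.07 over all genes. Of the 44, 7 passed without the HF-PO pool, 7 without that of HF-OO and 8 without that of HF-SO. Among 7 other heavy chain genes, 2 fell and 0 rose, with a median of -0.36. H2-Bl, a class I gene annotated as a transcribed pseudogene, read 947, 529 and 557 in SI3 against 2216, 2159 and 1832 in SI1, a difference of -1.63 (SE 0.15, adjusted p = 0.000262). H2-Q2 fell by 0.87 on the log2 scale (SE 0.10, adjusted p = 0.000639), to 6749, 6275 and 7317 in SI3, against 12666, 13157 and 11462 in SI1. For the classical chain H2-D1, the brightest probe set gave 0.23 (adjusted p = 0.173) and did not pass. Another H2-D1 probe set read lower in SI3, at 5296, 4607 and 5451 against 6722, 7018 and 6598 in SI1, a difference of -0.41 ± 0.17 (SD, n = 3 pools), so its probe sets disagreed in sign. H2-T3, the TL antigen gene, gave 0.06 (adjusted p = 0.687).

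Genes that fold and load class I molecules were higher in SI3 in 4 of 7 tested and lower in 0, with a median of 0.30, where 25.2% of all genes tested rose. None of the 4 calls passed without the HF-OO pool, with adjusted p from 0.0568 to 0.155, and with no filter on low values only that of Uggt1 did. The lectin chaperones calreticulin (Calr) and calnexin (Canx) rose by 0.34 and 0.30, with adjusted p = 0.0271 and 0.0343, and each of these calls was kept in 4 of 9 alternatives. Pdia3, which encodes the thiol oxidoreductase ERp57, rose by 0.39 (adjusted p = 0.00687), to 8412, 8521 and 8439.5 in SI3, against 6515, 6594 and 6244 in SI1. Uggt1, which marks unfolded glycoproteins for another round of folding, rose by 0.46 (adjusted p = 0.00412). These chaperones serve many glycoproteins besides class I. The aminopeptidase Erap1, which trims class I peptides, gave 0.15 (adjusted p = 0.326), and the tapasin relative Tapbpl gave 0.22 (adjusted p = 0.191).

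Of 14 constitutive proteasome subunits, 2 fell and 0 rose, with a median of -0.05, against the same 20.4% and 25.2% of all genes. Psmb5, Psmb6 and Psmb7, the catalytic subunits that immunoproteasome subunits replace, gave -0.08, 0.05 and 0.04 with adjusted p from 0.494 to 0.742. Psmb3 fell by 0.61 (adjusted p = 0.00177) and Psma5 fell by 0.33 (adjusted p = 0.0153). Of 3 other immunoproteasome and activator genes, the third catalytic subunit Psmb10 gave -0.22 (adjusted p = 0.0751), the activator subunit Psme1 fell by 0.27 (adjusted p = 0.0298) and the assembly factor Pomp rose by 0.26 (adjusted p = 0.0323). The calls of Psma5, Psme1 and Pomp were lost whichever pool was left out.

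Among 13 regulators of class I expression, 3 fell and 1 rose, with a median of -0.22, where 20.4% of all genes tested fell and 25.2% rose, so the share that fell was near that over all genes. Nlrc5, the class I transactivator, fell by 0.48 (adjusted p = 0.0151), to 179, 128 and 173 in SI3, against 248.5, 191 and 248 in SI1. Irf9, part of the complex that interferon activates, fell by 0.79 (adjusted p = 0.00121). Stat2 of the same complex fell by 0.28 (adjusted p = 0.049), a call kept in 3 of 9 alternatives and lost without the replicate block (adjusted p = 0.0545) and with any pool left out (adjusted p from 0.0776 to 0.28). Rfxap, a subunit of the RFX complex on class I and class II promoters, rose by 0.57 (adjusted p = 0.00363). Irf1 gave -0.23 (adjusted p = 0.0687) and the NF-kB subunit Rela 0.24 (adjusted p = 0.0516), and neither passed. Of the 14 calls between SI3 and SI1, those of H2-Bl, H2-Q2, Irf9, Psmb3 and Rfxap were kept in all 9 alternatives run, and that of Uggt1 was lost only without the HF-OO pool.

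**Figure D4:**
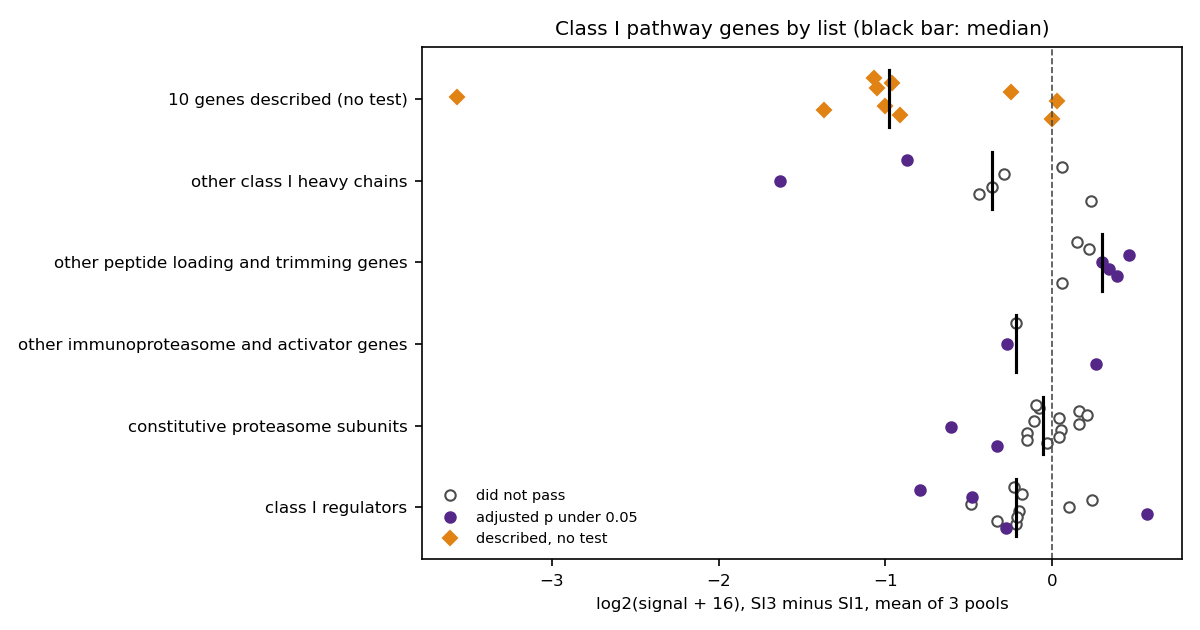
Log2 difference SI3 minus SI1, mean of 3 pools, for the 10 genes (diamonds, no test) and the tested genes of 5 lists. Filled circles passed limma at adjusted p under 0.05, open circles did not, and the black bar is the median of a list; the medians are -0.98 for the 10 genes and 0.30 for loading and trimming genes.

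Between SI2 and SI1, 3 of the 44 pathway genes fell and 0 rose, against 7.85% and 7.24% of all genes tested. They were H2-M3 at -0.44 (adjusted p = 0.0437), Psmb3 at -0.52 (adjusted p = 0.0127) and Nlrc5 at -0.53 (adjusted p = 0.0279), and each call was lost whichever of the 3 pools was left out. Between SI3 and SI2, 2 rose and 3 fell, against 11.5% and 11.9%. H2-Bl and H2-Q2 fell by 1.45 (adjusted p = 0.00124) and fell by 0.78 (adjusted p = 0.00274), and both calls were kept in all 9 alternatives, as the only 2 left when any pool was taken out. Irf9 fell by 0.48 (adjusted p = 0.0202), while Uggt1 rose by 0.29 (adjusted p = 0.0478) and the interferon gamma receptor gene Ifngr1 by 0.37 (adjusted p = 0.0393).

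Markers of T and intraepithelial lymphocytes and most of those of macrophages and dendritic cells were lower in SI3 than in SI1, while 3 of 5 B and plasma cell genes were higher. Of 9 tested genes of T and intraepithelial lymphocytes, 9 fell between SI3 and SI1 and 0 rose, with a median of -1.44. Their sum over 10 genes was 15776 to 20134 in SI1, 9465 to 12280 in SI2 and 5232 to 7562 in SI3. Cd8a, the CD8 chain that binds class I, fell by 1.19 (adjusted p = 0.000111), and Itgae, an integrin of intraepithelial lymphocytes, fell by 1.58 (adjusted p = 9.35e-05). Of 7 macrophage and dendritic cell genes, 6 fell and Itgam rose, with a median of -1.55 and a sum of 9297 to 10417 in SI1, 6000 to 7033 in SI2 and 2625 to 3037 in SI3. The B cell genes Cd79a, Cd79b and Ms4a1 rose by 0.50, 0.61 and 1.62, Jchain of plasma cells fell by 1.44, and the median of the 5 was 0.50. Of 3 endothelial genes 2 fell, and of 4 smooth muscle genes 2 fell, with medians of -1.72 and -0.43. Of 5 epithelial genes 1, Epcam, rose by 0.41 (adjusted p = 0.00709), and the median was 0.24. Of all genes tested, 20.4% fell and 25.2% rose between SI3 and SI1, with a median of 0.07. The share of epithelial genes that rose was near that over all genes. No marker of these lists was at 0 on any array, but without detection calls a signal above 0 does not show that a transcript was present. The part of immune cells in the levels of the 10 genes was not tested.

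**Figure D5:**
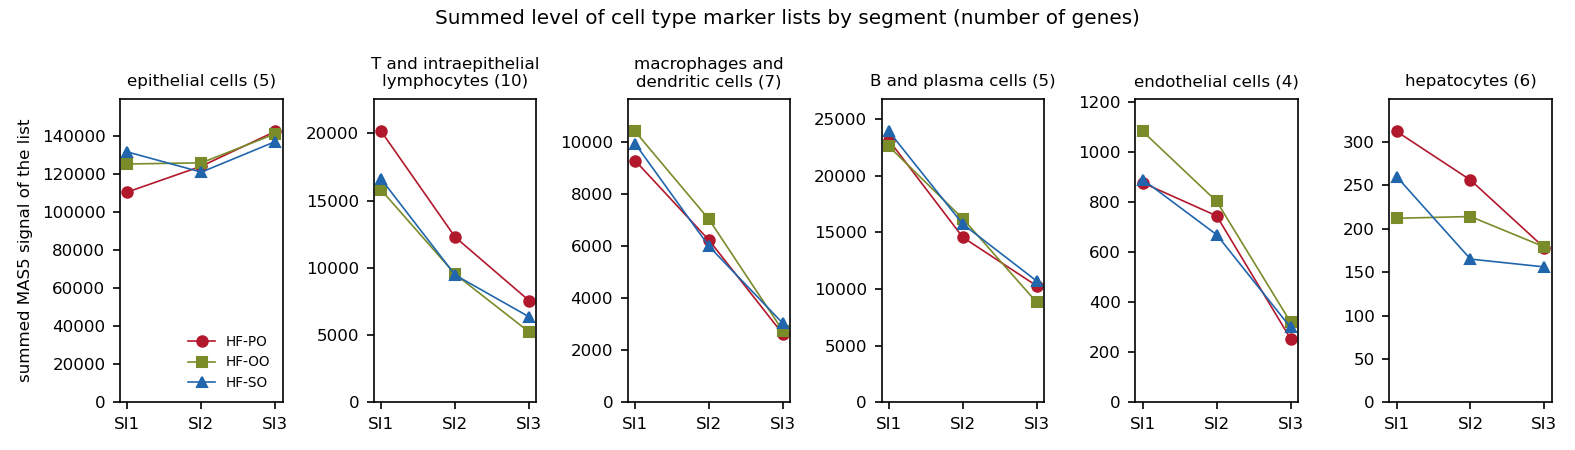
Summed MAS5 signal of cell type marker lists in SI1, SI2 and SI3, with 1 line per diet pool and the number of genes summed in each panel title; each panel has its own axis starting at 0. T and intraepithelial lymphocyte markers and macrophage and dendritic cell markers are lower in SI3 than in SI1 in all 3 pools, and HF-PO is the highest line for the lymphocyte list in each segment.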

How the data were processed

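RNA of 9 pools was hybridised to 9 Affymetrix arrays. The deposited table holds 1 intensity per probe set and array on a linear scale, made with MAS5 per the submitters' processing notes (version not given), which the authors scaled to a 2% trimmed mean of 500 on each array. From 45101 probe sets, 64 array controls were left out. Of the rest, 34945 had 1 gene symbol in the platform annotation, 932 several and 9160 none, and 34741 of the first were found by identifier in RefSeq. The 10 genes, the gene lists and the marker lists were chosen with earlier results of these data known.

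Signals were analysed as log2(signal + 16), which understates differences of dim probe sets. Probe sets with a mean of at least 6.80 on that scale, 22519 in all, were tested with limma 3.58.1 in R 4.3.3, with segment and diet pool as terms, 4 residual degrees of freedom and Benjamini-Hochberg adjustment, and adjusted p under 0.05 counted as a call. The pool was blocked since its mice supply all 3 segments. The 10 genes got no test. A gene's level is that of its brightest probe set, and every probe set of the 10 genes is given. The named genes are the 10, all members of the lists, and the 8 highest and 4 lowest by correlation with the 10. The fit was tested on simulated data. Alternatives were pseudocounts of 1 and 64, no filter, quantile normalization, no block, each pool left out, all probe sets of a gene averaged, and, added after the data were seen, the SI1 array of HF-OO left out. The number of arrays limits the precision. Other steps ran in Python 3.11.15 with pandas 2.3.3, numpy 2.4.6 and matplotlib 3.10.9.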

Additional observations from a re-analysis of the deposited data

How the results depend on the processing

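Of 218 alternative values of the differences of the 10 genes, 203 moved by less than the SD of the pools and 15 by more, and 13 changed sign, 4 of them among the 76 for SI3 minus SI1. Those 4 concerned H2-K1 without the HF-SO pool (0.18) and B2m under quantile normalization (-0.04), without the HF-PO pool (-0.09) and with both probe sets averaged (-0.07). For H2-Q10, SI3 minus SI1 ran between -4.03 and -3.15. Pathway genes past the threshold between SI3 and SI1 numbered 14, 6 with no filter on low values and 7 to 8 with a pool left out. Between SI2 and SI1 they numbered 3, then 0 with no filter and 0 with any pool left out, and between SI3 and SI2 5, then 2 with no filter and 2 with any pool left out. Without the SI1 array of HF-OO the last 2 counts were 1 and 3. Over all probe sets tested, 9969, 3375 and 4787 passed between SI3 and SI1, SI2 and SI1, and SI3 and SI2, and 5551 to 7581, 537 to 811 and 1317 to 2394 with a pool left out. With no filter the second and the third were 604 and 1681, and without the SI1 array of HF-OO the second was 1348. Without the replicate block the counts were 10178, 3823 and 5136, and 15, 4 and 6 for pathway genes, so the pairing of segments by pool moved no count by over 1.5 times. A pool left out leaves 2 arrays per segment and fewer residual degrees of freedom. Each segment has 3 arrays of different diets, each diet 1 array per segment, and each array 6 mice pooled, so differences between animals and between diets have no error estimate here. Heavy chain probe sets can detect related genes, and detection calls were not used.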
